A study of Mus musculus with 4 samples.

Results

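Occupancy of the transcription factor CTCF was described at 6 genes of the voltage-gated sodium channel family, Scn1a, Scn2a, Scn3a, Scn7a, Scn8a and Scn9a, out of 21755 protein-coding mouse genes. A CTCF site was assigned to a gene when its summit, the position of highest signal in the peak, lay in the gene body or within 20 kb of it. By that rule 50 of 90278 summits belonged to the 6 genes. All had passed an irreproducible discovery rate (IDR) of 0.05, a limit on how well a peak's rank in 1 replicate is recovered in the other. The rule uses gene names and the positions of genes and summits, and beyond that IDR limit it uses no signal value.

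The tissue, labelled layer of hippocampus, came from adult male B6CASTF1/J mice aged 2 months, and CTCF was located in it by ChIP-seq, in which DNA bound by the protein is pulled down with an antibody and sequenced. These animals are the first-generation cross of the laboratory strain C57BL/6J and the wild-derived strain CAST/EiJ. The 4 libraries formed 2 biological replicates with 2 technical libraries each, and each replicate was a pool of 7 tissue biosamples. The study had no treated, mutant or control group, which left sites to describe and replicates to set side by side. Each replicate gave 1 value per site, since its technical libraries were merged before peaks were called. Both pools carry 1 shared donor entry in the labels, so they may or may not come from separate animals, and spread between the replicates may be technical. No value separated the alleles of the parental strains. The tissue could not be checked against marker genes, because no RNA was measured, and whole tissue mixes neurons and glia. The read depth behind the peaks is unknown, so the intervals given here cover the counting of sites and genes only.

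Voltage-gated sodium channels open when the membrane depolarises and carry the inward current that starts and propagates the action potential. In the brain this current comes mainly from the alpha subunits encoded by Scn1a, prominent in inhibitory interneurons, Scn2a and Scn8a, concentrated at the axon initial segment, and Scn3a, best known from embryonic and neonatal neurons. Scn9a encodes the channel of pain-sensing peripheral neurons, and Scn7a encodes a related channel that responds to extracellular sodium rather than to voltage. CTCF binds DNA through an array of zinc fingers at a directional motif, and together with the cohesin ring it halts loop extrusion, preferentially where motifs face each other.

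Each member is represented here by sequence under summits that its results turn on, at annotated starts or at the strongest motif-bearing site. The sequences run 5′ to 3′ along the strand of the motif, on the GRCm38/mm10 reference of RefSeq, and capitals mark the best match to the 12-base CTCF core motif within 50 bp of the summit.
Scn1a promoter, chr2:66410159-66410210, minus strand: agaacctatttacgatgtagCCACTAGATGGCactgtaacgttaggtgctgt
Scn2a first promoter, chr2:65620674-65620725, plus strand: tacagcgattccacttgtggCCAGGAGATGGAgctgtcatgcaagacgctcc
Scn2a second promoter, chr2:65668566-65668617, minus strand: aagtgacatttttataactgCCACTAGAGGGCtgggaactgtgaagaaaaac
Scn3a promoter, chr2:65567573-65567602, minus strand: gtgtgtctgCCAGTAGATGGCagtaacacg
Scn9a downstream site, chr2:66473366-66473417, plus strand: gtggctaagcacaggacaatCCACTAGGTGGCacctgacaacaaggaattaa
Scn7a upstream site, chr2:66800029-66800080, minus strand: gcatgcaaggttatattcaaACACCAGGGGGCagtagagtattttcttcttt
Scn8a 3′ end, chr15:101042810-101042839, minus strand: gcgatgttgCCTGCAGGTGGCgctctagaa
The matches at the Scn1a promoter, the second Scn2a promoter, the Scn3a promoter and the Scn9a downstream site were exact, with 0 mismatches, although no pair of these 4 sites carried the same 12 bases. Those upstream of Scn7a and at the 3′ end of Scn8a had 1 mismatch. The first Scn2a promoter had 2 mismatches, more than the limit of 1 used for the counts, and it was added because it held the strongest summit of the family.

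CTCF sat at an annotated transcription start site (TSS) of 4 of the 6 genes, Scn1a, Scn2a, Scn3a and Scn8a, and at none of Scn7a and Scn9a. The 4 occupied genes are the members best known from central neurons, and no link between that and CTCF occupancy was tested. A summit within 1 kb of a start was found at 66.7% of the members, at 38.0% of all 21755 protein-coding genes, and at 53.9% of the 1491 protein-coding genes with a body of 100 to 200 kb, the size range of every member. With 6 genes, 5 of them neighbours, the members' share was not tested against that background.

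The strongest promoter site belonged to Scn2a. Its summit on chromosome 2 at 65620697, 74 bp upstream of the first start, had a signal of 859, with 424 in replicate 1 and 440 in replicate 2. The signal is the score that the authors' peak caller gave, on a scale that the sources do not state. It ranks sites within this list, in which the median was 165. Sites of 464 or more, the highest 25.0% of the list, are called strong sites here. A second Scn2a start, at 65668765, had its own summit 177 bp upstream, in intron 1 of the longer transcript, with a signal of 662, 337 in replicate 1 and 324 in replicate 2. The remaining annotated Scn2a start, at 65670445, lay 1857 bp from that summit and was not counted as occupied. Both Scn2a promoter sites were therefore strong sites.

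Scn1a was occupied at an internal start. Of its 4 annotated starts, the one at 66410064 had a summit 127 bp upstream, at 66410191, with a signal of 755, 362 in replicate 1 and 397 in replicate 2. A start of the noncoding gene Gm13630 lay within 1 kb of the same summit, so the site cannot be assigned to 1 of these genes by position. The most upstream Scn1a start, at 66440837, had its nearest summit 5070 bp away with a signal of 44.0, near the bottom of the list. The remaining pair of starts lay 14602 and 14620 bp from the nearest summit. Scn1a thus carried strong CTCF signal at 1 of its 4 starts.

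Scn3a and Scn8a had summits close to their first starts. At Scn3a the summit at 65567589 lay 38 bp inside the first exon, with a signal of 690, 338 in replicate 1 and 350 in replicate 2. At Scn8a the summit at 100870613 on chromosome 15 lay 70 bp upstream of the nearest start and within 1 kb of 4 of the 8 annotated starts. Its signal was 299, with 155 in replicate 1 and 142 in replicate 2. The Scn8a promoter site was the weakest of the 5 promoter summits of the family and the only one that was not a strong site. The other 4 Scn8a starts, the first of them at 100933429, had no summit closer than 1757 bp.

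The unoccupied members had strong sites farther off. The Scn9a start at 66634952 was 1105 bp from a weak summit at 66636057, with a signal of 47.6, 24.1 in replicate 1 and 26.4 in replicate 2. A strong summit followed 9602 bp upstream of that start, at 66644554, with a signal of 649, 308 in replicate 1 and 344 in replicate 2. The single Scn7a start at 66784914 had its nearest summit 15147 bp upstream, at 66800061, with a signal of 689, 324 in replicate 1 and 368 in replicate 2. Under a promoter limit of 5 kb Scn9a would count as occupied and Scn7a would not.

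Scn3a, Scn2a, Scn1a, Scn9a and Scn7a lie together on chromosome 2, in that order from left to right. Scn2a is on the plus strand and the other 4 are on the minus strand, so the 5′ ends of Scn3a and Scn2a face each other. With 20 kb on either side the cluster spanned chr2:65437118-66804914, 1367.8 kb, and held 41 CTCF summits, 27 assigned to a member and 14 in the stretch between Scn2a and Scn1a. That was 3.0 summits per 100 kb of the cluster, against 3.83 per 100 kb of chromosome 2 and 3.43 per 100 kb of all chromosomes in the list. The median signal in the cluster was 122, against 165 in the whole list and 164 on chromosome 2. The list called from pooled reads held 24 cluster summits, 1.75 per 100 kb, against 2.69 per 100 kb of all chromosomes.

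**Figure D1:**
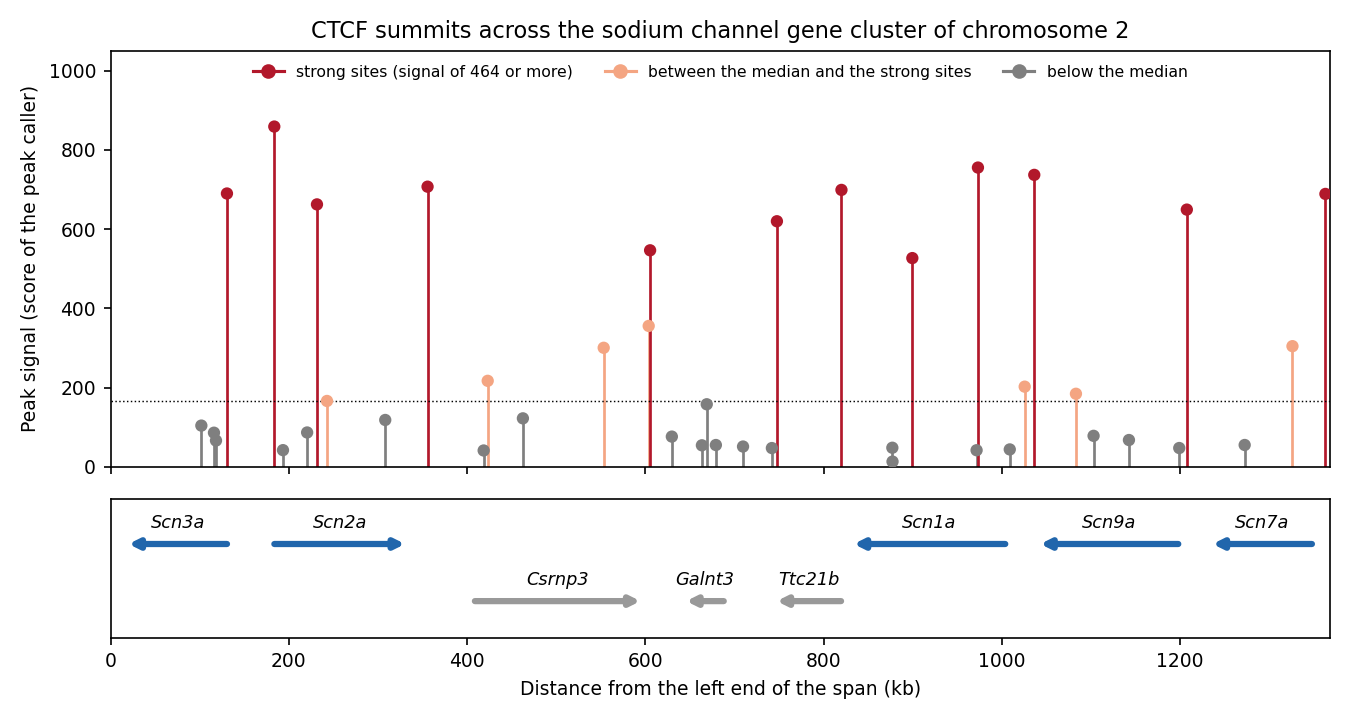
Peak signal (vertical axis, score of the peak caller) of the 41 CTCF summits against distance in kb from the left end of the chromosome 2 span, with the 5 members in blue and the other protein-coding genes in grey, arrows pointing in the direction of transcription. The dotted line is the whole-list median of 165. The 12 strong sites, in red, lie between 527 and 859, and 22 summits lie under the median.

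The cluster's signals were divided into strong, middle and weak as follows. Of its 41 summits, 12 (29.3%) had a signal over 500, against 23.2% of the list. Between 200 and 500 lay 5 (12.2%), against 21.4% of the list. Under 200 were 24 (58.5%), against 55.4% of the list. Among all 50 summits of the family none fell between 363, at Scn8a, and 527, at Scn1a. That interval held 8.81% of all summits in the list, and it was singled out after the values were seen. The 12 summits over 500 were the strong sites of the cluster and were spread along its length, with a median spacing of 79.5 kb between neighbours and a range of 47.9 to 249.7 kb.

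The 5 strongest cluster summits began with the first Scn2a promoter (859) and the Scn1a promoter (755). The next was the site between Scn1a and Scn9a at 66473384, 6.696 kb downstream of Scn9a, with a signal of 737, 366 in replicate 1 and 374 in replicate 2. The fourth, at 65792670, lay downstream of Scn2a and outside the 20 kb limit, with a signal of 707, 334 in replicate 1 and 372 in replicate 2. The fifth, at 66257058, was counted with Scn1a, 13.72 kb beyond its 3′ end, and had a signal of 699, 347 in replicate 1 and 353 in replicate 2. It lay 441 bp from the start of Ttc21b, a gene for a protein of intraflagellar transport in cilia, so by position it was also a promoter site of that gene.

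Between Scn2a and Scn1a lie 3 other protein-coding genes, Csrnp3, Galnt3 and Ttc21b. Csrnp3, which encodes a nuclear protein of the cysteine-serine-rich family, had 4 summits in its body with signals of 41.4 to 301 and none within 9779 bp of its start. Galnt3, which encodes an enzyme of O-linked glycosylation, had 3 body summits of 54.4 to 158, the nearest 8844 bp from its start. Ttc21b had 1 body summit of 620 besides its promoter site. The longest gap between neighbouring summits, 90.654 kb from 65899640 to 65990294, lay within Csrnp3. The left end of the span, which covers most of Scn3a, held no summit for 101.743 kb. The shortest gap, 0.2 kb, separated summits at 66314155 and 66314355 in intron 17 of Scn1a. These overlapping peaks carried the same replicate values, 25.5 in replicate 1 and 26.3 in replicate 2, so they are not separate measurements.

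Strong sites also lay a short way outside the span. On the left, a summit at 65413844 lay 43.274 kb beyond the 3′ end of Scn3a, with a signal of 735, 374 in replicate 1 and 363 in replicate 2. On the right, a summit at 66820056 lay 35.142 kb upstream of Scn7a, with a signal of 658, 323 in replicate 1 and 337 in replicate 2. Both lay beyond the 20 kb limit and were not among the 50 summits. The 20 kb limit divided other sites as follows. At Scn7a the strong site 15.147 kb away (689) was inside and a weak one 20.608 kb away (80.2) was outside. At Scn1a the Ttc21b promoter site was inside at 13.72 kb, and the site 21.807 kb away (202) was counted with Scn9a, from which it was 17.433 kb distant. At Scn2a the strong site at 65792670 was outside at 25.223 kb. At Scn8a the site 10.483 kb away (659) was inside and one 22.47 kb away (301) was outside. No summit lay in the 20 kb flanks of Scn3a, and the nearest outside site was 35.337 kb from it (117).

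Scn1a (chr2:66270778-66440840, minus strand, 170.063 kb) had 7 summits with a median signal of 48.3, and 3 of them were strong sites. The overlapping pair of peaks in intron 17, not separate measurements, is counted in full among the 7. The median depends on counting that pair in full. Beside the promoter site and the Ttc21b site, the third strong one lay in intron 3, at 66336575, with a signal of 527, 259 in replicate 1 and 269 in replicate 2. The other 4 summits were among the weakest of the family, with signals of 13.3 to 48.3. The weakest of all was the summit of 13.3 at 66314355 in intron 17, which belongs to that overlapping pair. Scn1a, a gene in which loss of 1 copy causes Dravet syndrome in people, thus had either strong or very weak sites and none between.

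Scn2a (chr2:65620771-65767447, plus strand, 146.677 kb) had 6 summits, with a median of 142. Beyond its promoter sites, its summits were all weak, with signals under 200. Those at 65657550 in intron 1, at 65679842 in intron 3 and at 65745189 in intron 23 had signals of 86.8, 166 and 118. The weakest, at 65630448 in intron 1, had 42.2, with 19.9 in replicate 1 and 22.0 in replicate 2.

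Scn3a (chr2:65457118-65567627, minus strand, 110.51 kb) had 4 summits, all in the first 30.951 kb, upstream of the coding sequence. The 76.117 kb from the first to the last coding base held 0 summits. Apart from the promoter site, the 3 others lay in intron 1 with signals of 66.4, 86.2 and 104. The weakest, at 65555292, had 35.5 in replicate 1 and 30.8 in replicate 2.

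Scn9a (chr2:66480080-66634962, minus strand, 154.883 kb) had 7 summits, 3 in its body and 4 in its flanks, and its strong sites were all in the flanks. The body sites, in introns 1, 12 and 17, had signals of 67.8, 78.3 and 184. The flanking sites were those of 649 and 47.6 upstream and of 737 and 202 downstream. Scn9a was therefore bracketed by a strong site beyond each end, and no body summit was a strong site.

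Scn7a (chr2:66673425-66784914, minus strand, 111.49 kb) had 3 summits, the fewest of the family. The strongest was the upstream site of 689, and a middle one of 305 lay in intron 1 at 66763090, with 152 in replicate 1 and 150 in replicate 2. The weakest, at 66709467 in intron 10, had a signal of 55.2, with 25.2 in replicate 1 and 26.2 in replicate 2.

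Scn8a stood alone on chromosome 15 (chr15:100869858-101045938, plus strand, 176.081 kb) and carried 23 of the 50 summits. It encodes the channel that dominates at mature nodes of Ranvier. Its summits were closely spaced, with a median gap of 4.37 kb, and 13 of them were under the list median. Of its 3 strong sites, the strongest, at 101042838, lay in the last exon, in its 3′ noncoding part, with a signal of 750, 373 in replicate 1 and 381 in replicate 2. The second, at 101056421, lay 10.483 kb downstream of the gene and had 659, with 322 in replicate 1 and 336 in replicate 2. The third, at 100997295 in intron 12, had 620, with 306 in replicate 1 and 318 in replicate 2. The strong sites of Scn8a were thus in its 3′ portion and downstream, and the promoter site was of middle rank.

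**Figure D2:**
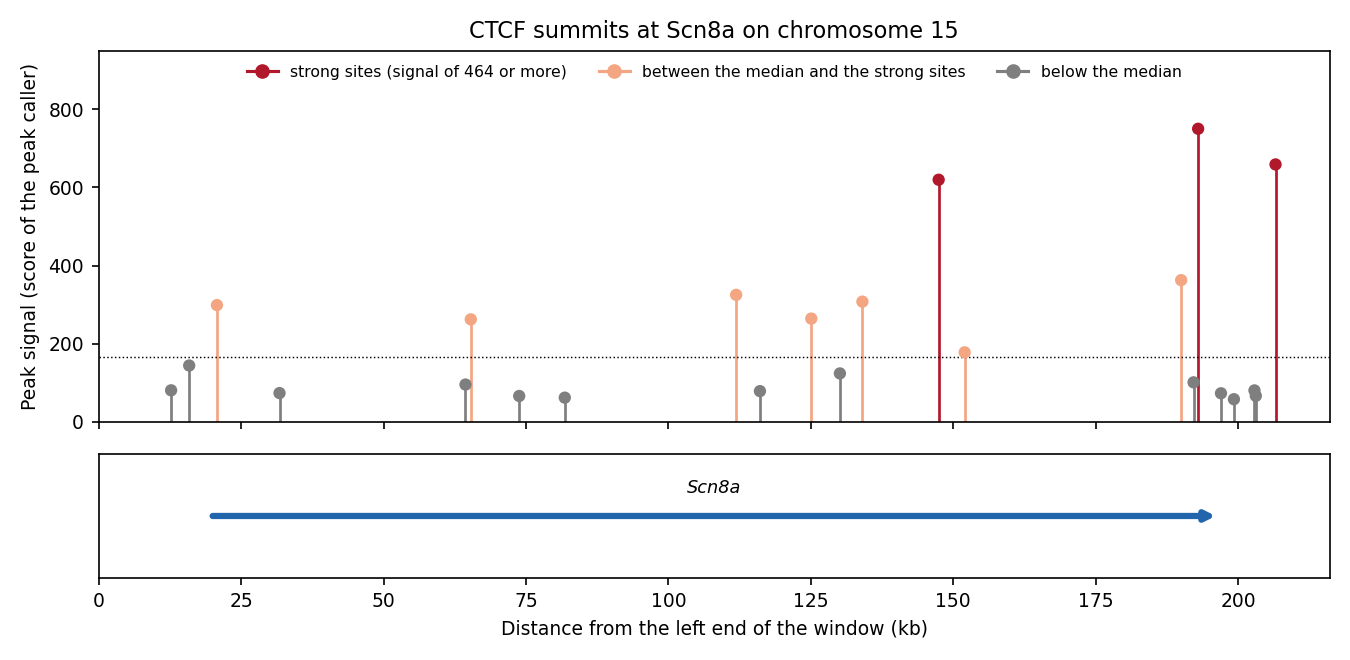
Peak signal (vertical axis, score of the peak caller) of the 23 CTCF summits of Scn8a against distance in kb from the left end of the gene with its 20 kb flanks, with the gene body as a blue arrow in the direction of transcription. The dotted line is the whole-list median of 165. The 3 strong sites, 620, 750 and 659 from left to right, are in the right part of the window.

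The longest stretch of the Scn8a window without a summit, 38.0 kb, ran from 101001858 in intron 12 to 101039861 in the last exon. Around the last exon and the 3′ flank the sites were densest. Within the last exon lay summits of 363 at 101039861, 101 at 101042040 and 750 at 101042838. Downstream followed 5 more, 4 of them weak. They included the weakest of the gene, 58.0 at 101049117, with 27.6 in replicate 1 and 31.3 in replicate 2. Another annotated gene, Gm47841, has a start within 1 kb of the summit at 101046850, so the downstream sites cannot be assigned to Scn8a by position alone.

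Relative to their length, the 5 clustered genes had fewer summits than the median gene of their size, and Scn8a had many. Counted over the body and both 20 kb flanks, the density in summits per 100 kb was 1.98 at Scn7a, 2.66 at Scn3a, 3.21 at Scn2a, 3.33 at Scn1a, 3.59 at Scn9a and 10.6 at Scn8a. Among the 1485 other protein-coding genes of 100 to 200 kb these placed Scn7a at the 13.8th percentile, Scn3a at the 22.1st and Scn2a at the 28.8th. Scn1a was at the 30.4th, Scn9a at the 33.8th and Scn8a at the 94.7th. The members' median was 3.27, against 4.84 for the other 1485 genes of that size, whose lower and upper quartiles were 2.85 and 7.10. Of the clustered genes, Scn7a and Scn3a were under that lower quartile, and Scn2a, Scn1a and Scn9a were between the quartiles. The 5 clustered genes share 1 stretch of chromosome, so they are not independent examples, and the difference was not tested.

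**Figure D3:**
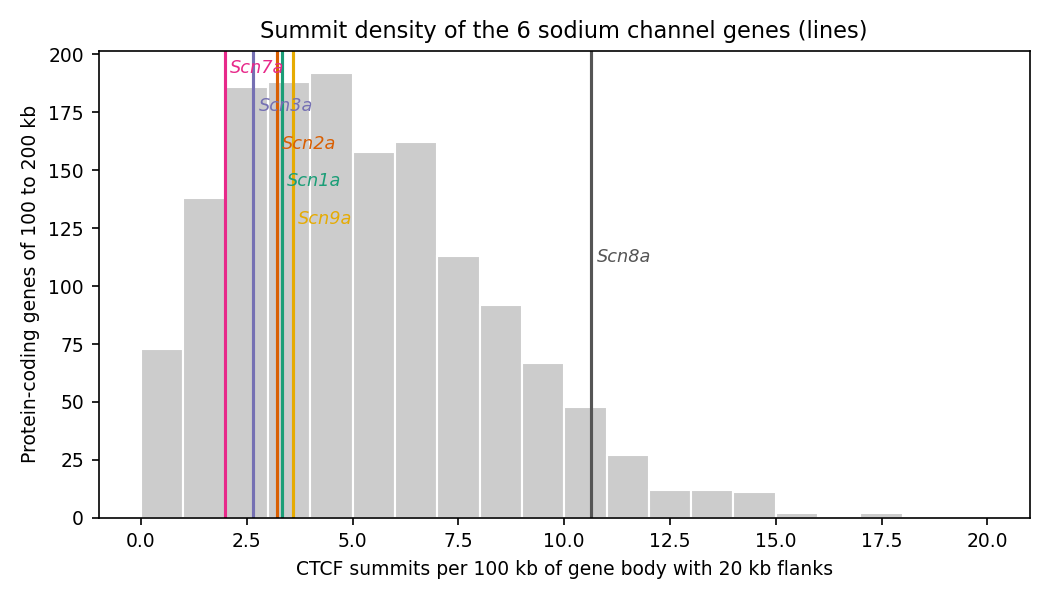
Number of protein-coding genes with a body of 100 to 200 kb (vertical axis) by CTCF summits per 100 kb, counted over the body and both flanks of 20 kb (horizontal axis, bins of 1). Coloured lines mark the 6 members. Those of chromosome 2 lie between 1.98 and 3.59, under the median of 4.84 for other genes of that size, and Scn8a lies at 10.6.

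The placement of sites relative to the coding sequence differed between members. The stretches from the 5′ end of the gene record to the first coding base held 17 summits in 331.061 kb over the 6 genes, 5.14 per 100 kb. They include the promoter summits of Scn1a, Scn3a and Scn8a and the second of Scn2a. The first Scn2a promoter summit lay just upstream of the gene record and was not counted. The stretches from the first to the last coding base held 16 in 519.8 kb, 3.08 per 100 kb. In the 5 clustered genes alone these densities were 4.16 and 1.93 per 100 kb, from 11 and 8 summits. Single genes went both ways. Scn3a had 12.9 summits per 100 kb before the coding sequence and 0 in it, and Scn2a had 6.03 and 2.12 in that order. Scn7a had 3.63 and 1.22, and Scn8a had 9.03 and 7.67, in the same order. Scn1a had 2.23 before the coding sequence and 3.83 in it, and Scn9a had 1.5 before it and 2.36 in it. The difference was not tested, and other genes were not counted in this way. The 3′ noncoding stretches held 2 summits in 18.843 kb, both at Scn8a. By annotation, 29 of the 50 summits were in introns, 5 in exons, 7 upstream and 8 downstream, and the remaining one was the Scn8a promoter summit, in the gene record but ahead of the transcripts of the basic annotation. These placements are given without shares over the whole list, so they describe the members only.

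The members' share of strong sites was close to that of the list, and their median signal was lower in the list used here. Of the 50 summits, 12 (24%, 95% exact interval 13.1 to 38.2) were strong sites, against 25.0% of the list by construction. Under the list median were 27 (54%, interval 39.3 to 68.2). The intervals treat summits as independent, although 23 of the 50 were at Scn8a and the others in the chromosome 2 cluster. The median signal of the members was 121, against 165 for the list. Its interval from counting alone, 80.6 to 264, contains the list median. At an IDR of 0.01 the members' median was 193, against 199 for the list. In the list called from pooled reads the order was reversed, with 305 for the members against 232 for that list.

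The core motif was about as frequent under the members' summits as under CTCF summits at large. A match with at most 1 mismatch, searched on both strands within 50 bp of the summit, was present at 28 of 50 summits (56%, 95% exact interval 41.3 to 70.0), and at 50.3% of all 90278 summits. In windows of the same size 1 kb away, it was present at 2 of 50 (4%) of the members' sites and at 1.25% of all. Among the strong sites 9 of 12 (75%) had a match, against 68.6% in the list. Under the list median the share was 11 of 27 (40.7%), against 40.5% in the list. The centre of the match lay a median of 11.5 bp from the summit at the members' sites and of 7.5 bp at all matched sites. At the strong sites no member's match was more than 13.5 bp away.

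An exact match was found at 5 member summits (10%), against 10% of the list. It was present at the Scn1a promoter, the second Scn2a promoter, the Scn3a promoter, the site downstream of Scn9a and the site of 659 downstream of Scn8a. Per gene, a match with at most 1 mismatch was present at 4 of 7 summits of Scn1a, 5 of 6 of Scn2a, 3 of 4 of Scn3a, 2 of 3 of Scn7a, 5 of 7 of Scn9a and 9 of 23 of Scn8a. Scn8a, with the most sites, thus had the lowest share. Of its 23 summits 13 were under the list median, where 40.5% of the list's summits had a match. The difference between genes was not tested. In the promoter sequences of RefSeq, windows of 300 bases around annotated starts, the core was present in 2 of the 7 windows of 5 members, among them that of the second Scn2a start, and in 4.33% of 32851 windows of all genes. Scn3a had no entry in the table used. A missing match says only that these letters are not in the window searched.

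The motif has a direction, which was described relative to the genes and to its neighbours. Among the 28 matched summits, 12 (42.9%, interval 24.5 to 62.8) had the core on the strand of the gene and 16 on the opposite strand. Over the cluster 25 summits had a match, 10 on the plus strand and 15 on the minus strand. Of the pairs of neighbouring matches, 5 faced each other, 5 faced apart and 14 pointed the same way. No whole-list count stands beside these pair counts. At the 9 strong sites of the cluster with a match, 3 were on the plus strand, those at 65792670, 66257058 and 66473384, and 6 on the minus strand. With up to 2 mismatches all 12 strong sites of the cluster had a match, and the cluster had 16 on each strand.

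The replicates gave alike values at the strong sites and differed more at the weak ones. They are compared by the log2 ratio, replicate 1 over replicate 2, from which the list's median ratio was subtracted. Over the 50 member summits the median was 0.04 and the SD 0.21, with a range of -0.46 to 0.73, and 29 were above 0. At the strong sites the SD of the ratio was 0.066 at the members and 0.085 in the list. Below the list median it was 0.23 at the members and 0.56 in the list. The 12 strong sites held the 12 highest values in replicate 1 and also in replicate 2. Strong sites were chosen on a signal that draws on both replicates, so this overlap is not separate evidence of agreement.

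**Figure D4:**
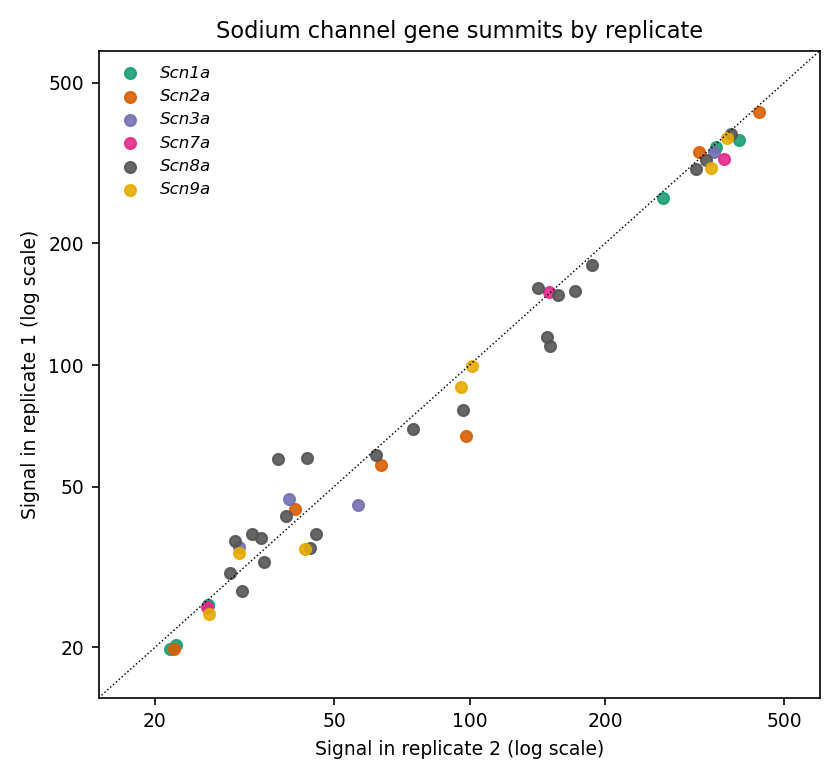
Peak signal of the 50 member summits in replicate 1 (vertical axis) against replicate 2 (horizontal axis), both on log scales, coloured by gene, with the dotted line at equal values. Points of high signal lie along the line, and the points farthest from it are at weak or middle sites, mostly of Scn8a.

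The 3 largest ratios toward replicate 1 were all at weak sites of Scn8a. The summit at 100914244 had 58.4 in replicate 1 and 37.6 in replicate 2, a log2 ratio of 0.73. That at 101042040 had 58.8 and 43.6 (0.52), and that at 100923670 had 36.7 and 30.1 (0.38), replicate 1 first in each. Toward replicate 2, the site in Scn2a intron 3 at 65679842 had 66.8 in replicate 1 and 98.3 in replicate 2 (-0.46). The Scn8a sites at 100915173, with 112 in replicate 1 and 151 in replicate 2 (-0.34), and at 100974939, with 117 and 149 in the same order (-0.25), came next. None of these 6 sites was a strong site, and with 1 value per replicate none of the ratios was tested.

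The sites also differed in how many of the deposited lists held them. All 12 strong sites were found in the lists of replicate 1 alone, replicate 2 alone and the pooled reads, within 100 bp. The corresponding share for all strong sites of the list was not counted, so whether this is particular to the members cannot be said. Of the 50, 36 (72%) were in the list of replicate 1 alone, 32 (64%) in that of replicate 2 alone and 31 (62%) in that of the pooled reads. For the whole list, over sites of any signal, these shares were 79%, 79.5% and 77%. Before the threshold, 95 ranked candidate peaks had summits in the windows of the 6 genes, and 50 passed the IDR of 0.05. That was 52.6% of them, against 44.3% of all 203931 candidates. The 45 that failed had signals of 13.1 to 77.5, with a median of 28.1. The strongest failing one, at 65567788 beside the Scn3a promoter site, had 12.2 in replicate 1 and 45.4 in replicate 2. At Scn8a 23 of 48 candidates passed, and at Scn7a 3 of 3.

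Related genes showed a range of occupancy around that of the members. The alpha subunit genes Scn4a of skeletal muscle and Scn10a and Scn11a of sensory neurons had no summit within 1 kb of a start. Their densities were 10.7, 1.33 and 7.16 per 100 kb. Beta subunits are small membrane proteins that modify channel gating and location, and their genes Scn2b, Scn3b and Scn4b also had no promoter summit. Their densities were 9.56, 1.60 and 8.97 per 100 kb. Scn2b and Scn4b are neighbours on chromosome 9 and share their strongest site, of 818. Of 11 genes for partners of sodium channels at the axon initial segment and the node of Ranvier, among them the scaffolds Ank3 and Sptbn4 and the adhesion proteins Nfasc and Nrcam, 8 (72.7%) had a promoter summit, with a median density of 6.43. Of the 10 genes for alpha-1 subunits of voltage-gated calcium channels, 4 (40%) did, with a median density of 4.95. These counts stand beside 4 of 6 for the members, 38.0% for all protein-coding genes and 53.9% for those of 100 to 200 kb. The lists differed in gene size, with a median body of 290.8 kb for the partners, 135.2 kb for the calcium channel genes and 150.8 kb for the members. The bodies of Scn2b, Scn3b and Scn4b were of 12.3, 22.4 and 15.8 kb. The lists were not matched for size, and no list was tested.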

How the data were processed

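The 4 CTCF ChIP-seq libraries fell into groups by their labelled biological replicate. Per the labels, coordinates are on mm10 and fragments were selected for a size range of 200 to 600. The aligner, peak caller and versions were not given in the sources used here, and the possible input control named in the labels was not used. The deposited lists give for each peak a signal, the authors' peak caller score on an unstated scale, and the authors' IDR score, which is 540 at an IDR of 0.05 and 830 at 0.01, with a maximum of 1000.

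The list thresholded between replicates was used on chromosomes 1 to 19 and X. Replicate signals came from its ranked list. Of the peaks in its first input set, 78.4% were found with identical values in the ranked list of replicate 1 and 0% in that of replicate 2. For the second set, 80.3% were in the list of replicate 2 and 0% in that of replicate 1. Genes were those of the GENCODE M21 basic annotation, and sequences came from RefSeq GRCm38.p6. The core motif search was tested on simulated data with planted motifs.

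No test was made. Shares carry 95% exact (Clopper-Pearson) intervals, which treat summits as independent, though neighbouring sites may not be. The text names all 6 members, each member's strongest, weakest and promoter summits, the 3 largest and 3 smallest replicate ratios, the 5 strongest cluster summits, the extreme gaps and the other protein-coding genes between members. Some items of the rule and of the gene lists are not reported here. The members, lists and rules were chosen with earlier results of these data known. The alternatives were other IDR limits, lists, flanks, promoter limits, annotation and motif limits. The code ran in Python 3.11.15 with scipy 1.17.1, pandas 2.3.3, numpy 2.4.6 and matplotlib 3.10.9.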

Additional observations from a re-analysis of the deposited data

How the results depend on the processing

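Of 42 alternatives tried over 6 results, 36 left the count within 1.5 times the value given or the value within its spread. The list called from pooled reads was the exception among the lists: it held 31 member summits, 24 in the cluster, 1.75 per 100 kb of the cluster, with a median member signal of 305, above that list's own median of 232, whereas the members' 121 was below the 165 of the list used. It held all 12 strong member sites, a share that was not counted for the strong sites of the whole list. The members with a promoter summit numbered 4 under every list, annotation and promoter limit tried, except that a limit of 5 kb gave 5. The share of member summits with a core was 10% with an exact match and 76% with up to 2 mismatches, by construction of the limit. At an IDR of 0.01, 40 member summits (80%) were left, against 89.4% of all summits in the list, and their median signal was 193. The cluster kept 29 summits, 2.12 per 100 kb, against 3.07 per 100 kb of all chromosomes at that limit. Without replicate 1 the member summits were 36 and without replicate 2 they were 39, with 28 in the cluster each time. Flanks of 10 kb and 50 kb gave 46 and 64 member summits, and gene bodies alone gave 35. No paired analysis was possible because each replicate gave 1 value per site and no test was made. Depth is unknown, so a site missing from a list cannot be called absent.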
